A study of Homo sapiens with 10 samples.

Results

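Antisense long noncoding RNAs are transcripts made from the strand opposite a named gene, and 203 of them could be followed across the libraries of U2OS cells in which the histone variants H2A.Z.1 and H2A.Z.2 had been depleted. They were selected on their counts: of 23089 genes in the count table, 873 carry a symbol ending in -AS with or without a number, and the 203 with 500 or more counts summed over the 10 libraries are described here. The choice used the summed counts of the same libraries, without regard to how they divided between groups. A row near the limit can therefore have passed it only through the group where it is high. The difference of such a row is a description and lends no support. The 5 rows nearest below that limit were TMPO-AS1 with 499 counts, RUNDC3A-AS1 with 489, PARD6G-AS1 with 479, ZNF337-AS1 with 471 and PAXIP1-AS1 with 461, and the 5 nearest above it were PAPPA-AS1 with 514, ZBED3-AS1 with 527, RASAL2-AS1 with 528, KLHL7-AS1 with 532 and SEMA6A-AS1 with 546.

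U2OS is an established human osteosarcoma cell line. The cells had been transfected for 3 days with an siRNA against H2A.Z.1 (siH2AZ1), an siRNA against H2A.Z.2 (siH2AZ2), both siRNAs together (combined depletion), or a control siRNA, of which there were 2, named siCtrl 3 and siCtrl 4. Each of these 5 groups had 2 libraries, made from total RNA depleted of ribosomal RNA with a kit that keeps the strand, and all were sequenced together, which allows an antisense RNA to be counted apart from the gene it overlaps. Each isoform was targeted by a single siRNA, so that an effect of losing the isoform and any other effect of that siRNA cannot be told apart, and per the study's methods the samples of all groups were transfected side by side, so that the spread within a group is that of parallel transfections. The target strand of each siRNA is printed below because the reading of every comparison rests on it, with the 7 bases that pair with positions 2 to 8 of the guide strand in capitals.
siRNA against H2A.Z.1: guaguggguuuUGAUUGAg
siRNA against H2A.Z.2: ggugacaguugUGUGUUGa

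H2A.Z is a variant of histone H2A that is found in nucleosomes around the start sites of active genes and at enhancers, and in human cells it is made by the genes H2AFZ (H2A.Z.1) and H2AFV (H2A.Z.2), whose proteins differ by only a few residues. Many promoters are read in both directions. Antisense RNAs can start next to the promoter of a protein-coding gene and run away from it, or start elsewhere and run through the gene on the other strand. Some have known roles, such as OIP5-AS1, an abundant cytoplasmic RNA that binds microRNAs and the protein HuR, and ZEB1-AS1, made from the promoter of an epithelial-mesenchymal transcription factor, whereas for most no function has been assigned.

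The libraries held between 16716990 and 26946836 counts. Levels are given as CPM, counts divided by the TMM-scaled library size. H2AFZ was between 204 and 279 CPM in the 4 control libraries, 19.6 and 19.1 in the siH2AZ1 libraries and 22.5 and 22.1 in those of the combined depletion, and H2AFV was between 143 and 248 CPM in the control libraries and 63.8 and 65.5 upon H2A.Z.2 depletion. In edgeR's quasi-likelihood test with Benjamini-Hochberg adjustment over all genes, H2AFZ fell by 3.67 on the log2 scale upon H2A.Z.1 depletion (adjusted p = 0.000245), while for H2AFV upon H2A.Z.2 depletion the log2 fold change was -1.59 (adjusted p = 0.0754). H2AFV was also lower in siCtrl 4 than in siCtrl 3, by 0.75, and the part of this in the H2A.Z.2 comparison was not tested. Of the mesenchymal genes checked, VIM, FN1, COL1A1, SPARC and CD44 were at 110.0 CPM or more in all libraries and RUNX2 at 10.8 to 22.8, but COL1A2, which osteoblasts make in quantity, ranged from 0.19 to 1.3. Of 10 genes of other cell types, VWF reached 7.74 CPM, CDH1 3.99 and EPCAM 2.89, and the remaining 7 stayed at 1.21 or less.

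The 2 control siRNAs gave libraries that stood apart from each other at many antisense RNAs, and the calls of each depletion over the 203 are therefore given against the pooled controls and against each control siRNA. The values of single antisense RNAs, of pairs and of subsets are against the pooled controls unless a control siRNA is named. Between siCtrl 4 and siCtrl 3, 77 of the 203 antisense RNAs (37.9%) were called lower in siCtrl 4 and 22 (10.8%) higher, whereas 17.3% and 17.2% of all 16486 genes tested were called lower and higher. A gene was called when its adjusted p was below 0.05 and the change more than 25% upwards, or the same fold downwards. The median log2 difference over the antisense RNAs was -0.26.

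MSC-AS1, which is read opposite the gene of the transcription factor musculin, differed most: it was at 16.3 and 16.7 CPM in the siCtrl 3 libraries and at 0.267 and 0.0808 in the siCtrl 4 libraries, a log2 difference of -6.55 (SE 0.33, adjusted p = 9.58e-08, edgeR). It was at 0.427 and 0.902 CPM in the siH2AZ1 libraries, 12.4 and 12 in the siH2AZ2 libraries and 4.56 and 3.27 in those of the combined depletion. Its depleted libraries thus lay between those of the control siRNAs. VLDLR-AS1, opposite a lipoprotein receptor gene, was at 2.97 and 2.38 CPM with siCtrl 3 against 0.267 and 0.162 with siCtrl 4 (log2 difference -3.64, SE 0.45). FGD5-AS1, one of the most abundant antisense RNAs here, stood at 167 and 173 CPM with siCtrl 3 and at 41.1 and 47.8 with siCtrl 4 (log2 difference -1.93, SE 0.09). NIPBL-AS1 (-1.71) and FOXD2-AS1 (-1.60) followed. In the other direction, STXBP5-AS1 was at 1.41 and 1.2 CPM with siCtrl 3 and at 5.48 and 4.81 with siCtrl 4 (log2 difference 1.94, SE 0.19), followed by TNRC6C-AS1 (1.2), SH3PXD2A-AS1 (1.00), PAPPA-AS1 (0.91) and FAM13A-AS1 (0.90). The call of PAPPA-AS1 was lost without siCtrl 3 library 1 or siCtrl 4 library 2 and that of FAM13A-AS1 without library 1 of either control siRNA, with adjusted p of up to 0.155 and 0.191. The summed counts were 579 for STXBP5-AS1, 514 for PAPPA-AS1 and 607 for FAM13A-AS1. Without the siCtrl 4 libraries each of these antisense RNAs would fall under the limit on summed counts. Their differences between the control siRNAs are therefore a description.

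All 203 antisense RNAs passed the filter on low counts in each comparison against the pooled controls. Their summed counts ran from 514 to 80310 with a median of 1481, and none had more than 48.3% of its counts in a single group. Together they took 0.232% to 0.361% of all counts of a library. The lowest shares were those of the siCtrl 4 libraries (0.232% and 0.234%) and the highest those of the siH2AZ1 libraries (0.349% and 0.361%). LRRC75A-AS1, which RefSeq now lists as the small nucleolar RNA host gene SNHG29, was the most abundant, followed by FGD5-AS1, C1RL-AS1, PSMA3-AS1 and OIP5-AS1. Per kilobase of annotated exons, LRRC75A-AS1 was at 36.5 CPM in the controls, FGD5-AS1 at 17.7, C1RL-AS1 at 14.9, PSMA3-AS1 at 9.83 and OIP5-AS1 at 3.58, against a median of 1.43 over the 200 antisense RNAs with a length. On this measure the order differed: FLG-AS1, with 397 annotated bases, was highest at 92.1, and EMC3-AS1 (35.3) and KMT2E-AS1 (25.3) lay above FGD5-AS1.

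The names cover more than one kind of gene. RefSeq gives 191 of them as long noncoding RNA and 4 as antisense RNA, while 6 are now listed as protein-coding, such as NCBP2-AS2, and 2 as transcribed pseudogenes. RefSeq still uses an -AS name for 165, gives 26 the ending -DT for a divergent transcript, and lists 12 under other names. By their positions in GENCODE (hg38), 65 were divergent from the sense gene, meaning that the genes lie on opposite strands with canonical starts at most 1000 bases apart and pointing away from each other, 128 overlapped it in another way, 5 did neither and 5 could not be placed. Some of the 128 also start close to the start of the sense gene, such as APCDD1L-AS1 (20 bases apart) and KMT2E-AS1 (116 bases apart).

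Upon H2A.Z.1 depletion more antisense RNAs were up-regulated than down-regulated, although most passed the test in neither direction. Of the 203, 46 were called up (22.7%) and 4 down (1.97%), whereas of all 16112 genes tested 12.2% were called up and 15.7% down. The median log2 fold change was 0.31 over the antisense RNAs and -0.02 over all genes, and 147 of the 203 fold changes were above 0. Scaling by library size alone moved the median of all genes to 0.08 and gave 59 antisense RNAs up and 3 down with a median of 0.41, against 17.0% of all genes up and 12.9% down. The median was above 0 against either control siRNA, although the number of calls differed. Against siCtrl 3 alone 78 (38.4%) were called up and 31 (15.3%) down, with a median of 0.25, where 22.4% and 25.4% of all genes were called up and down. Against siCtrl 4 alone 101 of 202 (50%) were called up and 15 (7.43%) down, with a median of 0.43, where 25% and 28.0% of all genes were. In 91 antisense RNAs (44.8%) both siH2AZ1 libraries lay above all 4 control libraries and in 21 (10.3%) below them, where the shares of all genes were 27.0% and 27.3%. Called up against siCtrl 3 and also against siCtrl 4 were 58 (28.6%, against 13.9% of all genes), and called down against both were 7 (3.45%, against 16.5% of all genes). Without siH2AZ1 library 1, 12 antisense RNAs were called up (5.91%, against 2.99% of all genes), and without library 2, 5 (2.46%, against 1.75%). None was called down, against 4.47% and 3.54% of all genes. In that case the depleted group is a single library assumed to vary like the controls.

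**Figure D1:**
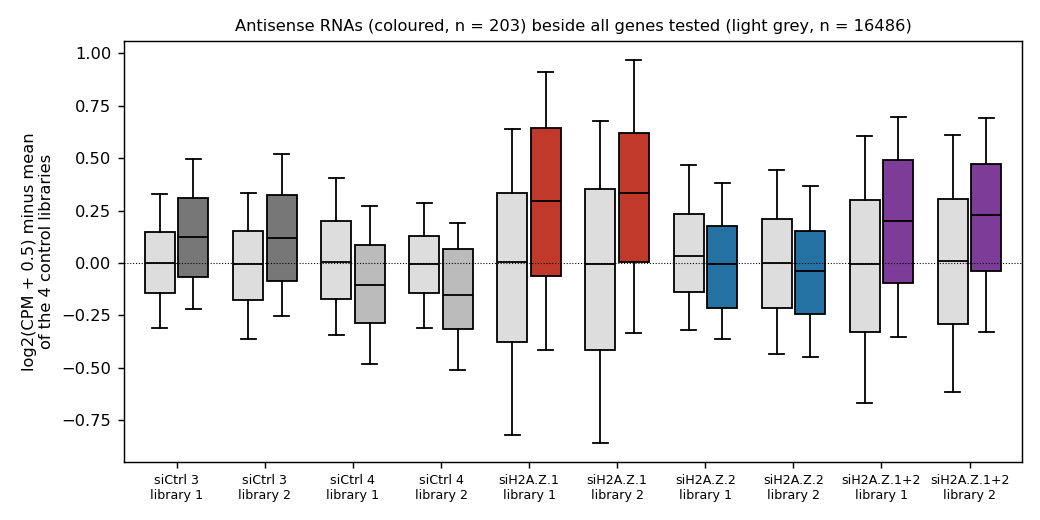
Levels of the 203 antisense RNAs (coloured boxes) and of all 16486 genes tested (light grey boxes) in each of the 10 libraries, as log2(CPM + 0.5) minus the mean of the 4 control libraries. Lines are medians, boxes the middle 50% and whiskers the 10th to 90th percentile, and the antisense medians are 0.295 and 0.333 in the siH2AZ1 libraries, 0.201 and 0.231 in the combined depletion, and range from -0.154 to 0.126 in the controls.

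The largest rise was that of ITGB2-AS1, which starts 152 bases from the canonical start of ITGB2, the gene of a leukocyte integrin beta chain, and runs away from that start (chr21:44921051-44929680, plus strand) inside the longer annotated span of the gene (chr21:44885953-44931989, minus strand). It was at 1.88, 2.06, 2.05 and 2.38 CPM in the control libraries, 12.9 and 12 in the siH2AZ1 libraries, 2.49 and 2.27 in the siH2AZ2 libraries and 6.39 and 4.19 in those of the combined depletion. The mean rose from 2.09 ± 0.21 (SD, n = 4) to 12.4 ± 0.63 (SD, n = 2), a log2 fold change of 2.56 (SE 0.16, adjusted p = 0.000384, edgeR). Both siH2AZ1 libraries were far above every other library, and the combined depletion lay between them and the controls.

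SOX9-AS1 is divergent from SOX9, the transcription factor of cartilage, with starts 215 bases apart (chr17:72067099-72237203, minus strand). Its levels were 1.80, 2.87, 1.16 and 0.889 CPM in the controls, 6.40 and 5.51 in the siH2AZ1 libraries, 1.66 and 1.74 in the siH2AZ2 libraries, and 7.33 and 8.33 in those of the combined depletion. It rose by 1.83 on the log2 scale (SE 0.43, adjusted p = 0.0204, edgeR), or by 1.38 against siCtrl 3 and 2.54 against siCtrl 4. SOX9 was at 113 to 278 CPM in the controls and at 172 and 143 upon H2A.Z.1 depletion, within that range.

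CEBPB-AS1 lies opposite the gene of the transcription factor C/EBP-beta. It was at 2.54, 2.76, 1.20 and 1.53 CPM in the controls and at 6.40 and 5.41 upon H2A.Z.1 depletion (log2 fold change 1.55, SE 0.35, adjusted p = 0.0181, edgeR), or higher by 1.16 against siCtrl 3 and 2.10 against siCtrl 4. The siH2AZ1 libraries held 120 and 114 of its 637 summed counts. Without them CEBPB-AS1 would fall under the limit on summed counts, so its rise is a description, here and below. ZNF528-AS1, next to a zinc finger gene, went from 3.40, 2.98, 3.47 and 2.71 CPM to 8.43 and 8.55 (1.43, SE 0.17, adjusted p = 0.00201). UBA6-AS1, next to the gene of a ubiquitin-activating enzyme, went from 17.4, 17.1, 19.6 and 21.9 CPM to 41.5 and 53.3 (1.31, SE 0.15, adjusted p = 0.00177). In each of these 3 the siH2AZ1 libraries were above all controls by a wide margin.

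Among the 10 largest rises that were called, TMEM9B-AS1 (1.27), MZF1-AS1 (1.2) and GMDS-AS1 (1.21) had adjusted p of 0.00488 to 0.0274. They neighbour genes of different kinds: a lysosomal membrane protein, a zinc finger transcription factor and a GDP-mannose enzyme. The siH2AZ1 libraries held 103 and 129 of the 694 summed counts of MZF1-AS1, and 89 and 90 of the 599 of GMDS-AS1. Without these libraries MZF1-AS1 and GMDS-AS1 would fall under the limit on summed counts. Their rises are therefore a description, here and below. Over all 46 the log2 fold change ran from 0.36 in BAIAP2-AS1 to 2.56, with a median of 0.82, and the medians were 0.80 against siCtrl 3 and 0.88 against siCtrl 4. In all 46 both siH2AZ1 libraries lay above the 4 controls. Against each control siRNA taken alone 45 of them were called, the exception being BAIAP2-AS1, whose log2 fold change of 0.31 against siCtrl 3 was under the fold threshold. The 46 were chosen on these same libraries, so both counts follow in part from the choice and lend it no support. Of the rises named above, those of ITGB2-AS1, ZNF528-AS1 and UBA6-AS1 kept their call when any of the 6 libraries was left out. TMEM9B-AS1 lost it only without siH2AZ1 library 2 (adjusted p = 0.0546), and SOX9-AS1, CEBPB-AS1, MZF1-AS1 and GMDS-AS1 without either siH2AZ1 library (adjusted p of up to 0.122, 0.118, 0.116 and 0.15), GMDS-AS1 also without siCtrl 4 library 2.

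**Figure D2:**
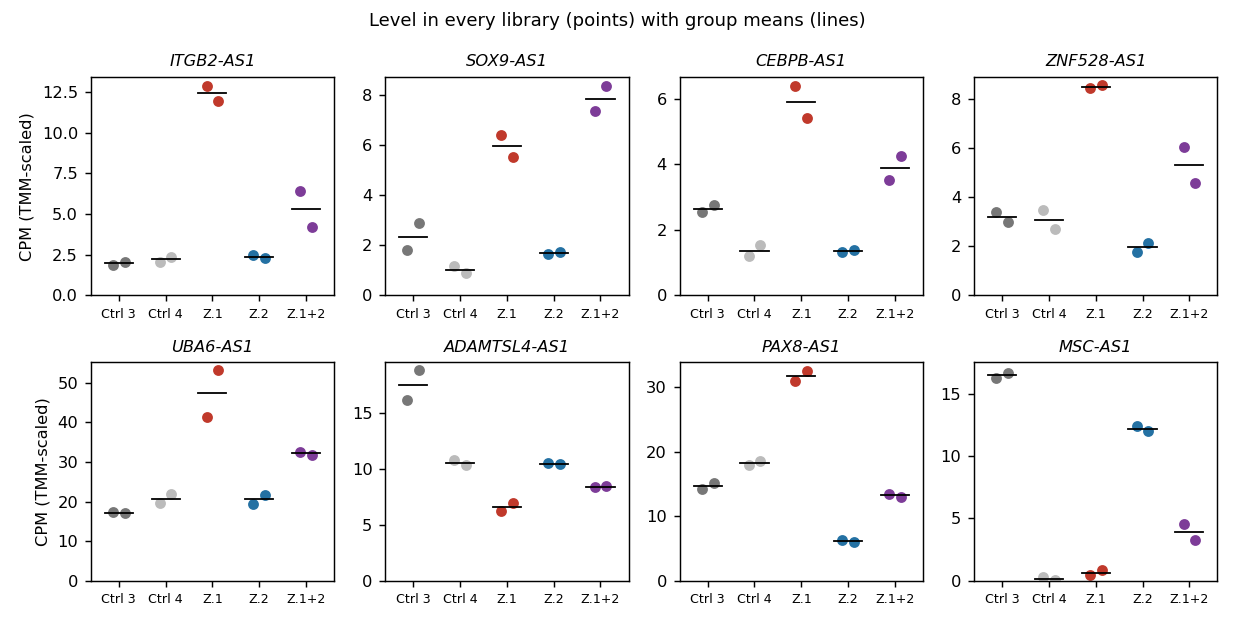
TMM-scaled CPM of 8 antisense RNAs in every library (points, 2 per group) with group means (lines), each panel starting at 0. ITGB2-AS1, SOX9-AS1, CEBPB-AS1, ZNF528-AS1 and UBA6-AS1 are highest or among the highest upon H2A.Z.1 depletion, ADAMTSL4-AS1 is lowest there, PAX8-AS1 moves in opposite directions in the single depletions, and MSC-AS1 separates the control siRNAs, with 16.3 and 16.7 CPM for siCtrl 3 against 0.267 and 0.0808 for siCtrl 4.

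Only 4 antisense RNAs were called down upon H2A.Z.1 depletion. ADAMTSL4-AS1, beside the gene of a matrix protein, was at 16.1, 18.8, 10.7 and 10.3 CPM in the controls and at 6.19 and 6.98 upon H2A.Z.1 depletion, and fell by 1.09 on the log2 scale (SE 0.30, adjusted p = 0.0336, edgeR), with -1.40 against siCtrl 3 and -0.67 against siCtrl 4. URB1-AS1 went from 4.45, 4.28, 3.83 and 4.24 CPM to 2.51 and 1.85 (-0.95, SE 0.22, adjusted p = 0.0191). It had 756 summed counts, and without the control libraries URB1-AS1 would fall under the limit on summed counts. Its fall is therefore a description, here and below. NR2F1-AS1, opposite the gene of a nuclear receptor, went from 11.4, 11.2, 9.31 and 8.60 CPM to 5.98 in both libraries (-0.76, SE 0.18, adjusted p = 0.0214). DLGAP1-AS1 went from 23.4, 22.5, 19.6 and 20.3 CPM to 12.9 and 17.1 (-0.52, SE 0.16, adjusted p = 0.0475). The depleted libraries were below all controls in each of the 4. Each of these calls was lost without siH2AZ1 library 1 and without library 2, with adjusted p of up to 0.194, 0.159, 0.15 and 0.305, that of ADAMTSL4-AS1 also without siCtrl 3 library 1, and that of DLGAP1-AS1 without any library other than siCtrl 4 library 1.

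Calls were rarest among the thinly counted antisense RNAs. Of the 68 with fewest counts (514 to 968) 9 were called up (13.2%, near the 12.2% of all genes), of the 67 in the middle (991 to 2372) 18 (26.9%) and of the 68 with most counts 19 (27.9%), while the median log2 fold changes were 0.22, 0.39 and 0.30. Of the 104 antisense RNAs not called between the control siRNAs, 33 were called up (31.7%) and 2 down (1.92%). Of the 77 that were lower in siCtrl 4, 13 were called up (16.9%, nearer the 12.2% of all genes) and 2 down (2.6%, against 15.7%). Their median was 0.31, and that of the 104 was 0.33. The same control libraries set this split and the spread in the test, so fewer calls where they differ are built in. All genes were not split in this way. Of the 22 that were higher in siCtrl 4 none was called in either direction in edgeR, with a median of 0.31. C1RL-AS1 is one of them: its siH2AZ1 libraries, at 145 and 174 CPM, were above the controls at 63.9, 66.9, 116 and 120, with an adjusted p of 0.0775.

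Other noncoding rows with 500 or more counts were compared in the same way. Of 136 rows named LINC, which mark noncoding genes that lie between others, 28 were called up (20.6%) and 19 down (14%) upon H2A.Z.1 depletion with a median of 0.11, against 12.2% and 15.7% of all genes and 22.7% and 1.97% of the antisense RNAs. Of 19 rows named -IT, for transcripts within introns, 3 were called up (15.8%) and 1 down (5.26%) with a median of 0.21. The difference between these classes and the antisense RNAs was not tested.

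**Figure D3:**
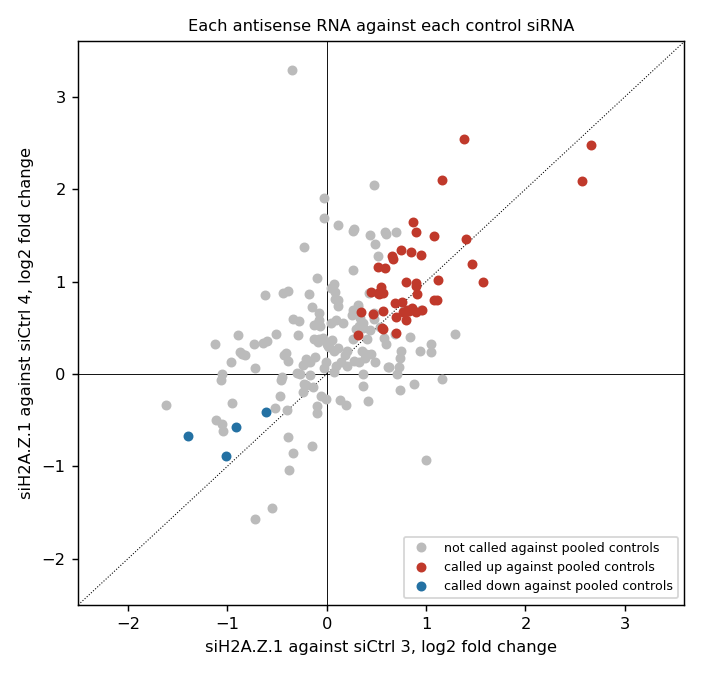
Log2 fold change of 202 antisense RNAs between siH2AZ1 and siCtrl 3 (horizontal) and between siH2AZ1 and siCtrl 4 (vertical), coloured by the call against the pooled controls; MSC-AS1 was not tested against siCtrl 4 and is left out. All points called up lie above 0 on both axes, from 0.311 against siCtrl 3 and 0.421 against siCtrl 4 upwards. The calls rest on the same libraries as both axes.

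Some antisense RNAs changed direction with the control. Upon H2A.Z.1 depletion 5 (2.46%) were called down against siCtrl 3 and up against siCtrl 4, or the reverse, where 1.84% of all genes were. Upon H2A.Z.2 depletion there were 7 (3.45%, against 1.88% of all genes) and upon combined depletion also 7 (3.45%, against 2.23%). Among the 5 upon H2A.Z.1 depletion, FLG-AS1, MEIS1-AS3 and ZNF674-AS1 were lower than siCtrl 3 (log2 fold changes of -0.60, -0.44 and -0.63) and higher than siCtrl 4 (0.36, 0.87 and 0.85), and STXBP5-AS1 was higher than siCtrl 3 (1.00) and lower than siCtrl 4 (-0.93). None of the 5 was called against the pooled controls.

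Upon H2A.Z.2 depletion 1 of the 203 antisense RNAs was called up and 1 down (0.493% each), where 0.605% and 0.179% of all 16188 genes tested were called. The median log2 fold change was -0.06. PAX8-AS1, which overlaps the gene of a thyroid and kidney transcription factor (chr2:113211421-113276581, plus strand), was at 14.3, 15.1, 18 and 18.6 CPM in the controls and at 6.25 and 5.95 upon H2A.Z.2 depletion, a fall of 1.43 on the log2 scale (SE 0.16, adjusted p = 0.0305, edgeR). It was at 31.0 and 32.5 CPM upon H2A.Z.1 depletion, where it rose by 0.94 (SE 0.14, adjusted p = 0.00451), and at 13.5 and 12.9 upon combined depletion, just below the lowest control. Its 2 single depletions thus lay on opposite sides of all controls. Both H2A.Z.2 calls were lost when any of the 6 libraries was left out (adjusted p of up to 0.469 for PAX8-AS1), and the H2A.Z.1 call of PAX8-AS1 without siH2AZ1 library 2 (0.056). Against siCtrl 3 alone 9 antisense RNAs (4.43%) were called up and 32 (15.8%) down, where 8.99% and 5.19% of all genes were. Against siCtrl 4 alone 29 (14.3%) were called up and 13 (6.40%) down, both below the 16.9% and 12.7% of all genes. DESeq2 called 1 up (0.493%) and 3 down (1.48%), against 2.49% and 1.63% of all genes.

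The single depletions were also compared directly, with no control library in the contrast. The fit used all 10 libraries with the control siRNAs pooled, so the difference between these still entered the spread of the test. Between siH2AZ1 and siH2AZ2, 64 antisense RNAs were called higher upon H2A.Z.1 depletion (31.5%) and 9 lower (4.43%), against 13.9% and 18.4% of all genes, and the median difference was 0.42. The 5 largest that passed were ITGB2-AS1 (2.38, SE 0.23, adjusted p = 0.0001, edgeR), PAX8-AS1 (2.38, SE 0.16), ZNF528-AS1 (2.12), CEBPB-AS1 (2.11) and SOX9-AS1 (1.80). Of these, 4 kept the call without any of the 10 libraries, and SOX9-AS1 lost it without siH2AZ1 library 1 or without either siH2AZ2 library (adjusted p of up to 0.0785). Leaving out 1 of the 4 libraries compared brought the 73 calls down to 32 to 38, of which those up were 14.3% to 17.7% of the antisense RNAs and those down 0.493% to 1.97%. The shares of all genes then fell too, to between 6.09% and 9.74% up and between 10.2% and 11.9% down. LOXL1-AS1 was at 28.1 and 29.2 CPM in the siH2AZ1 and at 66.5 and 73.4 in the siH2AZ2 libraries, with the siCtrl 3 libraries at 83.8 and 92.1 and the siCtrl 4 libraries at 36.5 and 35.9. Its difference of -1.29 (SE 0.44, adjusted p = 0.0489) was lost without any 1 of the 6 libraries of the depletions, with adjusted p of up to 0.191.

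Upon combined depletion 22 antisense RNAs were called up (10.8%) and 3 down (1.48%), against 7.77% and 9.35% of all 16184 genes tested, with a median log2 fold change of 0.21. With the replicate number as a block in the fit, 7 were called up (3.45%, near the 3.15% of all genes) and none down (4.29% of all genes). Both depleted libraries lay above all controls in 70 (34.5%, against 24.2% of all genes) and below them in 15 (7.39%, against 24.8%). Against siCtrl 3 and also against siCtrl 4, 36 were called up (17.7%, against 10.6%) and 6 down (2.96%, against 11.9%). Compared with siCtrl 3 alone 53 (26.1%) were called up and 31 (15.3%) down, where 18.4% and 20.3% of all genes were, and compared with siCtrl 4 alone 88 (43.3%) up and 15 (7.39%) down, where 23.9% and 24.1% of all genes were. Without combined depletion library 1 or 2 no antisense RNA was called in edgeR, and 0.144% and 0.289% of all genes were called up. Without siCtrl 4 library 2, 12 (5.91%) were called up and none down, against 4.86% and 6.47% of all genes, so that the share called up was then close to that of all genes. The comparisons of the combined and of the H2A.Z.1 depletion share their control libraries, so the calls they have in common are not counted here.

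Among the antisense RNAs called upon combined depletion, SOX9-AS1 had the largest log2 fold change, 2.24 (SE 0.42, adjusted p = 0.0157, edgeR), with 1.78 against siCtrl 3 and 2.95 against siCtrl 4. That of VLDLR-AS1 was 2.29 but with an SE of 0.91 and an adjusted p of 0.129. ITGB2-AS1 (1.35) was among the largest rises that were called. STPG3-AS1 was at 1.60, 1.95, 2.76 and 1.49 CPM in the controls, at 3.90 and 2.94 with siH2AZ1 and at 5.23 and 4.71 in the combined depletion, where it rose by 1.36 (SE 0.28, adjusted p = 0.0207). SOX9-AS1 had 778 summed counts and STPG3-AS1 had 638. Without the combined depletion libraries SOX9-AS1 and STPG3-AS1 would fall under the limit on summed counts. Their rises upon combined depletion are therefore a description. TMEM9B-AS1 (1.12), NFYC-AS1 (0.91), SH3BP5-AS1 (0.90), NRSN2-AS1 (0.89), SMC5-AS1 (0.84) and CCDC18-AS1 (0.78) were also among the 10 largest that were called. SMC5-AS1, divergent from the gene of a chromosome maintenance protein, was at 2.54, 2.60, 2.76 and 3.19 CPM in the controls and at 4.13 to 5.28 in all 6 depleted libraries. The 3 that fell were BOLA3-AS1 (-1.08, adjusted p = 0.0373), PRKCQ-AS1 (-0.59, adjusted p = 0.0364) and NCBP2-AS2 (-0.46, adjusted p = 0.0443). BOLA3-AS1 went from 4.69, 4.76, 3.30 and 3.35 CPM to 2.10 and 1.67, below every control. The control libraries held 120, 88, 74 and 83 of its 680 summed counts. Without them BOLA3-AS1 would fall under the limit on summed counts, so its fall is a description. Each of the calls named here for the combined depletion was lost without either combined depletion library, with adjusted p of up to 0.276. Leaving out single control libraries also ended the calls of NRSN2-AS1 and NCBP2-AS2 (any of the 4), BOLA3-AS1 and PRKCQ-AS1 (siCtrl 3 library 1 or 2, siCtrl 4 library 2), SMC5-AS1 (siCtrl 3 library 1 or 2) and CCDC18-AS1 (siCtrl 4 library 1 or 2).

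In a test of whether the combined depletion differed from the sum of the single depletions, 1 antisense RNA was called, against 0.14% of all 16486 genes tested. The call was lost without siCtrl 3 library 2 and without any 1 of the 6 depleted libraries.

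The list of better studied antisense RNAs held 17 that were measured, and 4 of them were called up upon H2A.Z.1 depletion (23.5%, against 22.7% of all 203 and 12.2% of all genes), none down (15.7% of all genes), and none in either direction upon combined depletion (7.77% and 9.35% of all genes). HOXA11-AS, from the HOXA cluster, was at 6.02, 6.66, 6.95 and 5.57 CPM in the controls and at 11.4 and 10.0 upon H2A.Z.1 depletion (0.76, SE 0.16, adjusted p = 0.0133, edgeR), while it was at 4.43 in both siH2AZ2 libraries. GABPB1-AS1 rose by 0.92 (SE 0.21, adjusted p = 0.0201) and ZEB1-AS1 by 0.83 (SE 0.23, adjusted p = 0.0332), and both were lower in siCtrl 4 than in siCtrl 3 by 0.57 and 0.55. The calls of HOXA11-AS, GABPB1-AS1 and ZEB1-AS1 were lost without either siH2AZ1 library (adjusted p of up to 0.11, 0.117 and 0.184), and that of ZEB1-AS1 also without siCtrl 4 library 2. PAX8-AS1, described above, was the remaining call. OIP5-AS1 was at 87.2, 87.6, 73.3 and 72.7 CPM in the controls and at 72.1 and 73.4 upon H2A.Z.1 depletion (-0.14, SE 0.12, adjusted p = 0.412). For FGD5-AS1, MCM3AP-AS1, SBF2-AS1 and LOXL1-AS1 the siH2AZ1 libraries were compared with controls that themselves differed by 0.85 to 1.93 on the log2 scale. PSMA3-AS1 (0.43), HOXB-AS1 (0.50), MAPKAPK5-AS1 (0.38), ACTA2-AS1 (0.31), SNAI3-AS1 (0.14), WT1-AS (0.12), NNT-AS1 (0.09) and VIM-AS1 (-0.49) had adjusted p of 0.0764 to 0.772.

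For 201 of the antisense RNAs the gene named before -AS, the sense gene, was in the table, HOXB-AS1 and RPARP-AS1 being the exceptions. GAS6, DLGAP1 and TSPEAR each have 2 antisense RNAs among the 203, so 6 of the pairs are not independent. Summed over the libraries, the antisense RNA had a median of 22.9 counts per 100 counts of its sense gene. It was outnumbered most by TPT1, a very abundant translation-linked gene (0.622 antisense counts per 100), and in 54 pairs the antisense RNA had more counts than the sense gene. At the extreme, KCNMB2-AS1 had 32400 counts per 100 of KCNMB2, which was at 0.0414 CPM or less in all libraries.

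In 185 pairs both genes were tested upon H2A.Z.1 depletion. Both were called up in 10 pairs and both down in 1, while the antisense RNA was called up and the sense gene down in 4 pairs and the reverse occurred in none. The antisense RNA alone was called in 34 pairs, up in 31 and down in 3. The sense gene alone was called in 50, up in 19 and down in 31, and neither in 86. The sense genes had a median log2 fold change of -0.005, with 29 called up (15.7%) and 36 down (19.5%), against 12.2% and 15.7% of all genes, and of their antisense RNAs 45 (24.3%) and 4 (2.16%) were called. The difference between both sides of the pairs was not tested. Across the pairs the log2 fold changes of antisense and sense gene had a Pearson correlation of 0.28 and a Spearman correlation of 0.22, given as a description since the pairs share the same libraries and controls. The strand-specific count separates overlapping genes, but pairs that overlap may still share misassigned reads, and this was not tested.

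**Figure D4:**
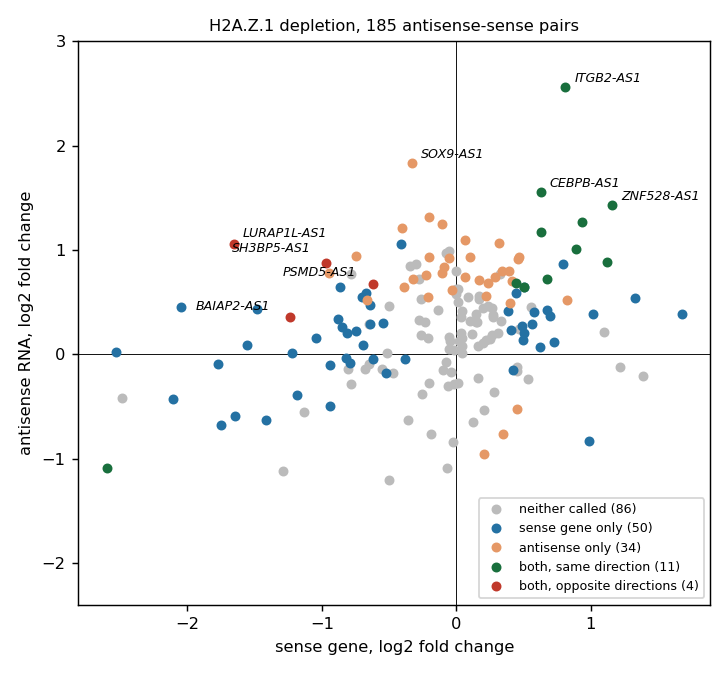
Log2 fold change upon H2A.Z.1 depletion of the antisense RNA (vertical) against that of its sense gene (horizontal) for the 185 pairs with both genes tested, coloured by which of the pair was called. The 4 pairs called in opposite directions lie at the upper left, none lies at the lower right, and the 31 pairs with an antisense rise alone are spread on both sides of 0 on the horizontal axis.

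In LURAP1L-AS1 and LURAP1L the pair came apart most. The antisense RNA was at 11.2, 12.1, 8.42 and 8.44 CPM in the controls and at 19.6 and 22.4 upon H2A.Z.1 depletion (1.06, SE 0.19, adjusted p = 0.00888, edgeR), whereas LURAP1L went from 22.3, 20.7, 13.1 and 13.3 CPM to 5.02 and 6.03 (-1.66, SE 0.30, adjusted p = 0.00837). Upon combined depletion they were at 16.1 in both libraries and at 6.53 and 6.49. The log2 ratio of antisense to sense moved from between -0.96 and -0.61 in the controls to 1.86 and 1.81, a change of 2.57.

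SH3BP5-AS1 went from 17.0, 17.1, 17.5 and 17.8 CPM to 27.3 and 36.6 (0.88, SE 0.13, adjusted p = 0.005, edgeR), and SH3BP5, which encodes an SH3 domain-binding protein, from 49.2, 42.7, 42.9 and 40.1 CPM to 22.3 and 22.6 (-0.97, SE 0.12, adjusted p = 0.0025). Upon combined depletion they were at 31.7 and 32.4 CPM and at 18.4 and 18. BAIAP2-AS1 went from 63.0, 64.2, 63.8 and 54.4 CPM to 78.6 and 79.2 (0.36, SE 0.10, adjusted p = 0.0388), and BAIAP2, a regulator of the actin cytoskeleton, from 84.1, 79.8, 113 and 90.7 CPM to 43.9 and 34.1 (-1.24, SE 0.18, adjusted p = 0.00426). PSMD5-AS1, listed in RefSeq as the pseudogene CUTALP, went from 16.3, 14.4, 11.6 and 12.7 CPM to 21.4 and 22.7 (0.68, SE 0.16, adjusted p = 0.0225), and PSMD5, a proteasome assembly factor, from 57.8, 60.4, 43.8 and 46.7 CPM to 33.0 and 35.0 (-0.62, SE 0.16, adjusted p = 0.0312).

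The log2 ratio rose by 1.79 in the SH3BP5 pair, by 1.59 in the BAIAP2 pair and by 1.27 in the PSMD5 pair. In each of the 4 pairs both siH2AZ1 libraries lay above all 4 controls, and the exact permutation test over libraries (two-sided) gave p = 0.0667 for each, the smallest value that the 15 arrangements of 2 against 4 allow. The pairs were chosen on these same libraries, so the ratios are a description of the choice. Over all 201 pairs the ratio was above all controls in 85 and below in 21. The antisense RNAs alone, without their sense genes, were above in 91 of the 203 (44.8%) and below in 21 (10.3%). The counts of the ratio are therefore not read as a result about pairs. The number of pairs called in opposite directions fell to 1 and 0 without siH2AZ1 library 1 and 2, and to 2 without siCtrl 3 library 2, and it rose to 19 and 20 against siCtrl 3 or siCtrl 4 alone. The call of BAIAP2-AS1 was lost without any of the 6 libraries (adjusted p of up to 0.182), those of LURAP1L-AS1 and PSMD5-AS1 without either siH2AZ1 library (0.0887 and 0.143) and that of SH3BP5-AS1 without library 2 (0.0559).

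**Figure D5:**
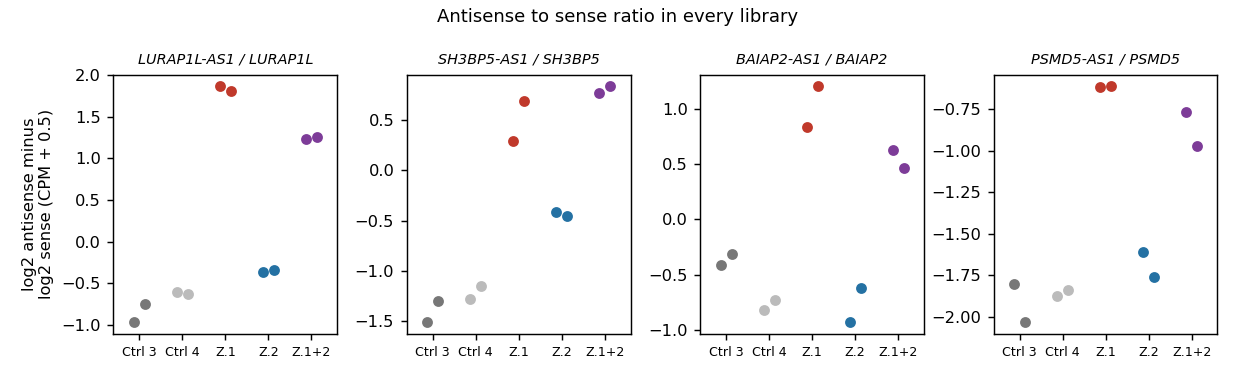
Log2 of the antisense CPM minus log2 of the sense CPM, each with 0.5 added, in every library for the 4 pairs called in opposite directions upon H2A.Z.1 depletion (2 points per group). In all 4 the siH2AZ1 libraries lie above the 4 controls, by a mean of 1.27 (PSMD5) to 2.57 (LURAP1L), and the combined depletion lies above the controls too.

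Upon combined depletion, which is set against the same control libraries, 4 pairs were called in opposite directions, all with the antisense RNA up: LURAP1L, SH3BP5, BAIAP2 and NRSN2. Both genes were called up in 6 pairs. Of the antisense RNAs in the 186 pairs tested, 10.8% were called up and 1.61% down. Of their sense genes 11.3% were called up and 12.9% down, against 7.77% and 9.35% of all genes. Whether the 4 and 6 pairs exceed what these shares give was not tested. Between the control siRNAs, 36.9% of the antisense RNAs in the 187 pairs tested were called lower in siCtrl 4 and 11.8% higher. Of their sense genes 13.4% were called lower and 18.7% higher, against 17.3% and 17.2% of all genes. Whether the pair counts exceed what these shares give was not tested. Both genes were higher in 6 pairs and lower in 12, and in 2 the antisense RNA was higher and the sense gene lower. In 13 pairs the antisense RNA was lower in siCtrl 4 and the sense gene higher. SOX9 is an example, at 130 and 113 CPM with siCtrl 3 and at 278 and 270 with siCtrl 4, while SOX9-AS1 was lower with siCtrl 4.

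The 11 pairs called in the same direction upon H2A.Z.1 depletion included ADAMTSL4 (down), CCDC18, CEBPB, ITGB2, LENG8, NFYC, PSMD6, TMEM161B, TMEM9B and ZNF528 (up). In ADAMTSL4 the sense gene fell by 2.60 on the log2 scale, from 4.41, 5.85, 6.19 and 6.30 CPM to 1.12 and 0.76, more than its antisense RNA. TMEM161B went from 29.7, 28.3, 26.0 and 26.7 CPM to 60.0 and 60.9 (1.12, SE 0.10, adjusted p = 0.00084, edgeR), and TMEM161B-AS1 from 6.80, 7.25, 6.19 and 6.10 to 11.3 and 13.2 (0.89, SE 0.15, adjusted p = 0.00692). ZNF528 rose by 1.16, TMEM9B by 0.93, CCDC18 by 0.89, ITGB2 by 0.81, LENG8 by 0.67, CEBPB by 0.63, PSMD6 by 0.50 and NFYC by 0.44. Among the antisense RNAs not yet mentioned, the call of CCDC18-AS1 (1.01) was lost without either siH2AZ1 library, that of PSMD6-AS2 (0.65) also without siCtrl 3 library 1, that of NFYC-AS1 (0.68) without any library other than siCtrl 3 library 2, and those of LENG8-AS1 (0.72) and TMEM161B-AS1 without siH2AZ1 library 2, with adjusted p of up to 0.241. The number of pairs called in the same direction was 2 and 1 without siH2AZ1 library 1 and 2, and 35 and 32 against siCtrl 3 or siCtrl 4 alone.

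Of the 65 antisense RNAs divergent from their sense gene, 19 were called up (29.2%) and 1 down (1.54%) upon H2A.Z.1 depletion, against 12.2% and 15.7% of all genes, with a median log2 fold change of 0.46. Their sense genes were called up in 9 (13.8%) and down in 16 (24.6%), with a median of -0.05. Of the 128 that overlapped the sense gene otherwise, 25 were called up (19.5%) and 3 down (2.34%) with a median of 0.25, and of their 114 tested sense genes 20 were called up and 20 down (17.5% each). Both genes were called up in 6 of the divergent pairs. Upon combined depletion 10 of the 65 divergent antisense RNAs were called up (15.4%) and 3 down (4.62%), and 11 of the 128 up (8.59%, near the 7.77% of all genes) and none down, against 9.35% of all genes. The difference between the arrangements was not tested.

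Since the starts of a divergent pair lie close together, a RefSeq window (GRCh38.p14) around the start of the antisense RNA can hold both starts. The windows run from 250 bases before to 50 bases after the start that RefSeq gives, whereas the starts marked below are those of the canonical GENCODE transcripts, which can lie elsewhere in the window. Such a window was on record for 159 of the 203 and for 52 of the 65 divergent ones. Of the divergent antisense RNAs called upon H2A.Z.1 depletion, 10 had a window with both starts, and 6 of these are printed, 5′ to 3′ on the strand of the antisense RNA, with the stretch from one GENCODE start to the other in capitals. In the first 3 both genes of the pair rose, in the next 2, the largest such rises, the antisense RNA rose and the sense gene was not called, and in the last the antisense RNA fell.
ZNF528-AS1, chr19:52397708-52398007, minus strand: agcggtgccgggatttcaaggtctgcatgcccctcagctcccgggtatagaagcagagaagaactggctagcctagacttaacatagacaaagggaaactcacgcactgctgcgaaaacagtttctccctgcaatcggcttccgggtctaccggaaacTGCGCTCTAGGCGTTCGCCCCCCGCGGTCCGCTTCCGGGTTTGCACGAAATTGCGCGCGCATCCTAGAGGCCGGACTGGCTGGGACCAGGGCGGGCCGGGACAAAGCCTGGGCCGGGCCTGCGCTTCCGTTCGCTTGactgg
TMEM161B-AS1, chr5:88268766-88269065, plus strand: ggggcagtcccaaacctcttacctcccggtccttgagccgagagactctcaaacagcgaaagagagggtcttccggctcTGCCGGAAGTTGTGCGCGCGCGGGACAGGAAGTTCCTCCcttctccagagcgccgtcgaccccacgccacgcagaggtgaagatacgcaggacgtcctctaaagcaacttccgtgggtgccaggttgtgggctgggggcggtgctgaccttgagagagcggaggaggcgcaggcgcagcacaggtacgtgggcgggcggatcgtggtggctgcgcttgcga
LENG8-AS1, chr19:54448989-54449288, minus strand: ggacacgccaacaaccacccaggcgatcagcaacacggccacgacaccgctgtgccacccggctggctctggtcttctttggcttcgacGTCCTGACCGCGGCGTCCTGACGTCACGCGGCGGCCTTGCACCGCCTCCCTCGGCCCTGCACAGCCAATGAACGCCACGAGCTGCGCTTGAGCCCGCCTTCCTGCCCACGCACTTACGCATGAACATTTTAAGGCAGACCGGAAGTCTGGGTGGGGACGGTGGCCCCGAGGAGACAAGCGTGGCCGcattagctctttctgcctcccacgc
UBA6-AS1, chr4:67701028-67701327, plus strand: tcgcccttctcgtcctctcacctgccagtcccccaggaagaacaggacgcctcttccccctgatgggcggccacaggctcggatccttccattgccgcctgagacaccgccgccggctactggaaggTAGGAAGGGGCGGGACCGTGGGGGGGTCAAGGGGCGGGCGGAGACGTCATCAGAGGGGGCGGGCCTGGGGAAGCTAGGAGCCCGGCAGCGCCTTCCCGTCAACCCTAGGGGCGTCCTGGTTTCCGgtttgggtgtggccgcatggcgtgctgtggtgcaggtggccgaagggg
GMDS-AS1, chr6:2245503-2245802, plus strand: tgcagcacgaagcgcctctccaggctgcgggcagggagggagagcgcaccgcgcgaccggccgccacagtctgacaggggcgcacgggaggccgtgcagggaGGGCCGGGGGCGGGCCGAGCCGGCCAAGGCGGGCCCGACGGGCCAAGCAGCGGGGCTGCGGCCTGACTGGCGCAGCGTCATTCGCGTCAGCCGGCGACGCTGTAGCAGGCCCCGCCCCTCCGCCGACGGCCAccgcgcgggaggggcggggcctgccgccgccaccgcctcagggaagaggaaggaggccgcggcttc
URB1-AS1, chr21:32392883-32393182, plus strand: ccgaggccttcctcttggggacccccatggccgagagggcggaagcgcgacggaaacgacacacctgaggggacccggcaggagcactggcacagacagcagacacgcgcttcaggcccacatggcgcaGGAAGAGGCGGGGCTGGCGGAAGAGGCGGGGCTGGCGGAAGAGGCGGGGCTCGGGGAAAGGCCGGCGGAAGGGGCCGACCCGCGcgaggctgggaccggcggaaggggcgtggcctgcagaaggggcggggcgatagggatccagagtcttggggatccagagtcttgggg

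The marked start of the antisense RNA has 294 bases of the window before it in ZNF528-AS1, 117 in TMEM161B-AS1, 274 in LENG8-AS1, 251 in UBA6-AS1, 233 in GMDS-AS1 and 212 in URB1-AS1. The GENCODE starts lie 136 bases apart in the ZNF528 pair, 38 in TMEM161B, 185 in LENG8, 124 in UBA6, 131 in GMDS and 83 in URB1. UBA6 was at 268, 277, 243 and 273 CPM in the controls and at 237 and 225 upon H2A.Z.1 depletion (-0.20, adjusted p = 0.167, edgeR), while UBA6-AS1 rose by 1.31. GMDS was at 14.2, 16.0, 13.1 and 13.6 CPM and at 9.71 and 11.8 (-0.41, adjusted p = 0.0871), and GMDS-AS1 at 2.70, 2.17, 1.34 and 1.53 and at 4.75 and 4.27. URB1, a ribosome assembly gene, was at 143, 157, 186 and 175 CPM and at 191 and 190 (0.20, adjusted p = 0.244). A shared window was thus seen with 2 rises, with a rise of the antisense RNA alone and with a fall of it alone.

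The windows were rich in CG dinucleotides, with a median of 28.5 over the 52 divergent antisense RNAs and 24.0 over all 159, against 14.0 over the 27305 promoters of the table. Of the 6 printed, the ZNF528-AS1 window has 26, TMEM161B-AS1 27, LENG8-AS1 29, UBA6-AS1 23, GMDS-AS1 41 and URB1-AS1 28. The 33 windows of antisense RNAs called up upon H2A.Z.1 depletion had a median of 23.0. The GC box GGGCGG, searched on both strands as were the other motifs, was in 94 of the 159 windows (59.1%) and in 44.6% of all promoters. The motif CCGGAAG of ETS factors was in 29 (18.2%, against 10.7%), with a pair of matches each in the windows of ZNF528-AS1 and TMEM161B-AS1, and CCAAT was in 54 (34%, against 35.7%). The TATA box TATAAA was in 7 (4.40%, against 12%), TGACTCA of AP-1 in 7 (4.40%, against 4.92%), CACGTG in 15 (9.43%, against 7.43%) and TTTGAA in 9 (5.66%, against 15.4%). Among the 33 windows of the antisense RNAs called up, 19 held the GC box, 9 the ETS motif, 10 CCAAT, 3 TATAAA, 1 TGACTCA, 1 CACGTG and 4 TTTGAA. A match is a run of letters and not a bound site, and CG content differs between these sets.

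The 7 bases in capitals of the siRNA against H2A.Z.1 occur in the canonical GENCODE transcript of 18 of 200 antisense RNAs, and those of the siRNA against H2A.Z.2 in 34. Upon H2A.Z.1 depletion, the siH2AZ1 bases were in 6 of the 45 antisense RNAs called up that have such a transcript, in 1 of the 4 called down, URB1-AS1, and in 11 of the 151 not called. The median transcript length was 1841 bases for those called up and 1785 for those not called. The transcript of PAX8-AS1, which fell upon H2A.Z.2 depletion, is 11799 bases long and holds 1 match to the siH2AZ2 bases. No transcript of an antisense RNA holds the full target strand of either siRNA. Whether any change came from such matches was not tested.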

How the data were processed

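RNA of U2OS cells was sequenced in 10 libraries, 2 in each of 5 groups, which were assigned from the sample labels. The deposited table holds raw counts per gene, which the authors made by aligning reads to hg38 with STAR and counting them per strand with HTSeq 0.6.1. The 3 other deposited tables hold the authors' own DESeq2 1.22.1 comparisons (fold changes, p-values, normalized counts) and were not used. The antisense RNAs and the gene lists were chosen with earlier results of these data known.

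Counts were tested in edgeR 4.0.16 (R 4.3.3, limma 3.58.1) with the quasi-likelihood test, TMM factors, filterByExpr and Benjamini-Hochberg adjustment over all genes tested. Calls needed an adjusted p below 0.05 and a change of more than 25% upwards (or the same fold downwards), except for the non-additive effect, which needed the adjusted p alone. The siCtrl 3 and siCtrl 4 libraries formed the control group, and the fits between the controls, between the single depletions and of the non-additive effect used all 10 libraries. The script was tested on simulated data. CPM values use TMM-scaled library sizes, and log2 values of single libraries add 0.5 CPM. Total counts of 16716990 to 26946836 per library limit the precision of thinly counted genes. The methods say that the samples were transfected in parallel but not that the experiment was repeated. The p-values therefore measure the spread between parallel transfections and not between repeated experiments. In fits with pooled controls, which include that between the single depletions, the spread also held the difference between the control siRNAs.

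Positions, exon lengths and canonical transcripts came from GENCODE release 44, which held 200 of the 203 antisense RNAs, and names and promoter windows from RefSeq (GRCh38.p14), which held all 203 names. Named genes were the 10 largest called rises and falls upon H2A.Z.1 and combined depletion, all calls upon H2A.Z.2 depletion, the most abundant, the largest 5 differences of the other contrasts, the pairs called for both genes, and the better studied list; others were chosen after their values were seen. Some antisense RNAs that this rule names are not reported here, but they are included in all counts. Alternatives were DESeq2 1.42.0, RLE factors, library size alone, no filter, a replicate block, each control siRNA alone, other count limits (200 and 1000), other pseudocounts (0.1 and 2) and leaving out each library. Python 3.11.15 and scipy 1.17.1 gave the exact permutation tests.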

Additional observations from a re-analysis of the deposited data

How the results depend on the processing

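No call of a named antisense RNA was reversed in the alternatives run for that comparison. Antisense RNAs not called against the pooled controls did turn with the control siRNA: 5 upon H2A.Z.1 depletion, 7 upon H2A.Z.2 depletion and 7 upon combined depletion were called in opposite directions against siCtrl 3 and siCtrl 4. The median over all antisense RNAs upon H2A.Z.2 depletion also changed sign, from -0.06 to 0.115 against siCtrl 4 alone, and it was 0.03 and 0.004 without siCtrl 3 library 1 and 2. Of 446 values of named antisense RNAs under the alternatives other than leaving out a library, 411 stayed on the same side of the threshold and 35 lost the call. The 50 antisense RNAs called upon H2A.Z.1 depletion became 109 against siCtrl 3 alone and 116 against siCtrl 4 alone, the 2 upon H2A.Z.2 depletion 41 and 42, the 25 upon combined depletion 84 and 103, and the 1 with a non-additive effect 22 and 34. Of the 22, 14 were above the sum (6.90%, against 6.25% of all genes) and 8 below it (3.94%, against 4.90%), and of the 34, 4 were above (1.97%, against 8.18%) and 30 below (14.8%, against 8.72%). Against these controls alone, 35 and 32 pairs were called in the same direction and 19 and 20 in opposite directions, where the pooled controls gave 11 and 4. The comparison between siCtrl 4 and siCtrl 3 bears on these counts, and the cause was not tested. With 1000 counts as the limit, 62 of 134 antisense RNAs were called between the control siRNAs instead of 99 of 203, 1 upon H2A.Z.2 depletion and 0 for the non-additive effect, since fewer were counted. DESeq2 called 4 upon H2A.Z.2 depletion and 2 for the non-additive effect, both below the sum (0.985%, against 0.723% of all genes), and RLE factors, library size alone and no filter gave 1 upon H2A.Z.2 depletion; the cause was not tested.

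Nothing in the labels says that a replicate number ties libraries of different groups together, so the numbers were not used to pair libraries in the reported tests. Deviations of same-numbered libraries from their group means were correlated by 0.145 to 0.43 in the 6 group pairs among siCtrl 3, siCtrl 4, siH2AZ1 and siH2AZ2, and by -0.405 to -0.112 in the 4 group pairs with the combined depletion, which with 2 libraries a group does not settle whether they were paired. With the replicate block 33 were called upon H2A.Z.1 depletion (15.3% up, against 8.74% of all genes), 0 upon H2A.Z.2 depletion, 7 upon combined depletion (all up, 3.45%, near the 3.15% of all genes) and 0 for the non-additive effect, and 2 pairs were called in opposite directions.

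Leaving out 1 library gave 5 to 48 calls upon H2A.Z.1 depletion, 0 to 0 upon H2A.Z.2 depletion, 0 to 17 upon combined depletion, 69 to 101 between the control siRNAs, 32 to 84 between the single depletions and 0 to 1 for the non-additive effect, with 1 to 12 pairs in the same direction and 0 to 4 in opposite directions. Where a group is left with 1 library, that library is assumed to vary like the others. With 2 libraries a group, thinly counted antisense RNAs are the least precise.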
